A study of Mus musculus with 2 samples.

Results

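The 10 genes described here encode stretch-responsive proteins, the Hippo signalling factors YAP, TAZ and TEAD1, and some of their target genes: Ankrd1, Ankrd23, Xirp1, Xirp2, Yap1, Wwtr1, Tead1, Ccn1, Ccn2 and Actn1. They are matched by symbol, a rule that uses no measured value, although the set was put together with earlier results of these data known. Each matched 1 of 55536 gene entries. The hearts came from 2 female mice of strain B6CASTF1/J, the hybrid of a C57BL/6 and a CAST parent, both 2 months old, and 1 library was made from each. The labels give a single group (n = 2) with no treatment, no stretch and no comparison group, so the values describe the genes' levels and how far 2 animals differ. Each library started from 300 ng of total RNA, was depleted of ribosomal RNA and carried ERCC spike-ins, which are synthetic transcripts of known amount.

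The Hippo pathway is a chain of protein kinases that, when active, keeps the coactivators YAP (gene Yap1) and TAZ (gene Wwtr1) in the cytoplasm. When the chain is quiet, or when a cell is under tension, YAP and TAZ enter the nucleus and bind TEAD factors on DNA, and genes such as Ccn1, Ccn2 and Ankrd1 are transcribed. In heart muscle the ankyrin repeat proteins encoded by Ankrd1 and Ankrd23 bind titin, the elastic filament of the sarcomere, while the Xin proteins encoded by Xirp1 and Xirp2 bind actin at the intercalated disc, where muscle cells join end to end.

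5 of the genes make coding transcripts that differ by a short stretch of exon. These stretches are shown because transcripts whose shares are given further on differ in them. Each is printed 5′ to 3′ on the coding strand, with the stretch that only some transcripts hold in capitals and 15 flanking transcript bases in lower case on each side. Positions are those of mm10 with the GENCODE M21 annotation.
Yap1, 48 bases in Yap1-201 at chr9:7950492-7950539, minus strand: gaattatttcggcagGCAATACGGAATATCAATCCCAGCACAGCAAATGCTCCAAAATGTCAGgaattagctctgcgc
Tead1, 63 bases in Tead1-201 at chr7:112841888-112841950, plus strand: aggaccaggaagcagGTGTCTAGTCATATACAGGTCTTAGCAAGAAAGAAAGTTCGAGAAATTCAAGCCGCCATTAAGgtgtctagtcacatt
Tead1, 12 bases in Tead1-201 at chr7:112856053-112856064, plus strand: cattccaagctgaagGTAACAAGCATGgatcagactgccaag
Actn1, 81 bases in Actn1-201 at chr12:80170686-80170766, minus strand: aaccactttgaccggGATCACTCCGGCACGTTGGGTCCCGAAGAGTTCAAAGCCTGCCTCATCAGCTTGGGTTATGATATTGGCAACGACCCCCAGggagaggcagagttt
Actn1, 66 bases in Actn1-202 at chr12:80170183-80170248, minus strand: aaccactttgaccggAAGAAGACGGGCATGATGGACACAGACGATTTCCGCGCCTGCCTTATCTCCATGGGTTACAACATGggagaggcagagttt
Ankrd1, 12 bases in Ankrd1-205 at chr19:36114977-36114988, minus strand: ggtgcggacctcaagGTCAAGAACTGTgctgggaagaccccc
Xirp2, 16 bases in Xirp2-202 at chr2:67519220-67519235, plus strand: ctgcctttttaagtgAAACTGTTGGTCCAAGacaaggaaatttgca
The stretches of Yap1, Tead1, Actn1 and Ankrd1 are a whole number of codons long and keep the reading frame. The 16 bases of Xirp2 are not, and the coding sequence is 3283 residues long with them and 3784 residues without. The Actn1 stretches replace each other, and both lie in the EF-hand region, which can bind calcium. They are known as its non-muscle version (81 bases) and its smooth muscle version (66 bases).

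Letters of the promoters are shown for the genes whose start region holds the short TEAD-type motif GGAATG, since TEAD factors are the DNA-binding partners of YAP and TAZ. The windows are those of RefSeq on GRCm38.p6, the assembly that mm10 also names, and run from 250 bases before to 50 bases after a start site. The motif was searched as GGAATG and, for the other strand, CATTCC. 7 of the 10 genes had a window, all but Xirp1, Tead1 and Ccn2, and the 30 bases around each match before a start are printed 5′ to 3′ on the gene's strand with the motif in capitals.
Ankrd1, chr19:36120037-36120066, minus strand, 210 bases before the start: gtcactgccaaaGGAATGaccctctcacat
Ankrd1, chr19:36119950-36119979, minus strand, 123 bases before the start: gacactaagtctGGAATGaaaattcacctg
Ccn1, chr3:145650071-145650100, minus strand, 103 bases before the start: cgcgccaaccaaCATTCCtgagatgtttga
Yap1, chr9:8004720-8004749, minus strand, 141 bases before the start: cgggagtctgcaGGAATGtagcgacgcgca
Wwtr1, chr3:57576029-57576058, minus strand, 136 bases before the outer start: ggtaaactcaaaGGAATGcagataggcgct
Ankrd23, chr1:36535842-36535871, minus strand, 120 bases before the inner start: cccagtgggccaCATTCCcagaacggtatt
The stretches of Ankrd1 lie before the RefSeq start but within the span of Ankrd1-205, whose annotated start is further out. Ankrd23 also had a match 36 bases after its outer start. The windows of Xirp2 and Actn1 held no match. Of all RefSeq windows of this length 14.7% held the motif (4817 of 32851), and 16.6% of genes had it in at least 1 window (4481 of 27025), against 5 of the 7 genes here. A match of 6 letters is a description of the sequence and not evidence that a factor is bound there.

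Levels are given as deposited TPM, the length-corrected relative abundance of a gene's transcripts, and unless said otherwise they come from the gene tables, called the first quantification here. A separate transcript table of the same libraries, summed per gene, is called the second quantification. Animal 1 had 41862417 gene reads and animal 2 had 41790009. Over all tested genes the TPM of animal 1 over that of animal 2 had a median log2 ratio of -0.22, so every SD of TPM below includes this difference of scale. The tissue label was met by its defining markers, as the 8 cardiomyocyte markers summed to 32637 TPM in animal 1 and 37600 TPM in animal 2, with the lowest, Ryr2, at 357 and 386 TPM.

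All 10 genes were measured far above the counting floor, with at least 1105 reads in each library, and they spanned a range of levels from moderate to high. Among 22015 nuclear protein-coding genes, 23.0% reached a mean of 10 TPM and 2.52% reached 100 TPM. All 10 were past the lower level and 3 past the higher one, Ankrd1, Ankrd23 and Xirp2, all of them muscle stretch genes. Actn1 was the lowest and Ankrd1 the highest.

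**Figure D1:**
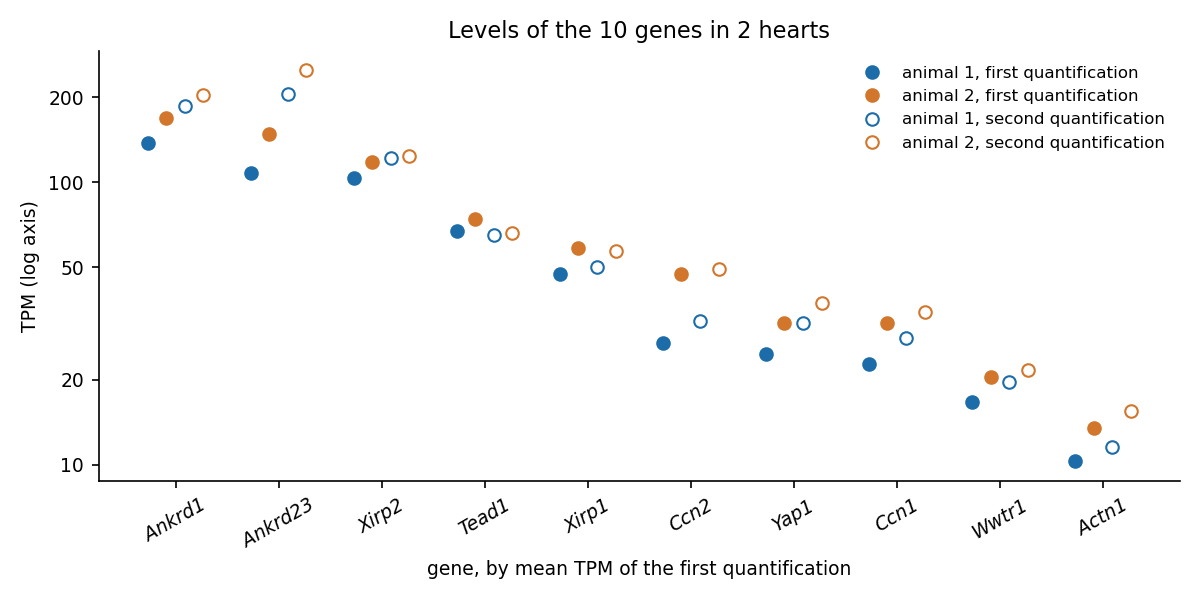
TPM on a log axis for each of the 10 genes, ordered by the mean of the first quantification. Filled points are the first and open points the second quantification, with animal 1 left of animal 2 within each pair; the muscle stretch genes Ankrd1, Ankrd23 and Xirp2 stand above 100 TPM in all 4 values, and Actn1 is lowest in all 4.

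Ankrd1, the titin-binding ankyrin repeat protein also called CARP, had 137 TPM in animal 1 and 169 TPM in animal 2, a mean of 153 ± 22.1 TPM (SD, n = 2) that placed it at rank 359 among protein-coding genes. Its gene lies at chr19:36111961-36120099 on the minus strand. Ankrd23, a relative also called DARP, had 108 TPM in animal 1 and 149 TPM in animal 2, with a mean of 129 ± 28.7 TPM (SD, n = 2), at chr1:36530188-36536883 on the minus strand. The family's remaining member, Ankrd2, known from skeletal muscle, had 5 reads in animal 1 and 3 reads in animal 2 and was not tested. The heart thus held the transcripts of 2 of the 3 family members at high level.

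The Xin genes were lower than the ankyrin genes in the mean of the first quantification. Xirp2 had 104 TPM in animal 1 and 118 TPM in animal 2, a mean of 111 ± 9.998 TPM (SD, n = 2), at chr2:67446002-67526614 on the plus strand. Xirp1, at chr9:120013755-120023598 on the minus strand, had 47.3 TPM in animal 1 and 58.6 TPM in animal 2, a mean of 53.0 ± 8.00 TPM (SD, n = 2). Xirp2 was 2.19-fold Xirp1 in animal 1 and 2.01-fold in animal 2. Xirp1 lies on the same strand within the span of Cx3cr1, a chemokine receptor gene of macrophages, which had 77 reads in animal 1 and 63 reads in animal 2.

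Of the coactivators, Yap1 was the higher. Yap1 had 24.7 TPM in animal 1 and 31.6 TPM in animal 2, a mean of 28.2 ± 4.90 TPM (SD, n = 2), at chr9:7931999-8004596 on the minus strand. Wwtr1 had 16.6 TPM in animal 1 and 20.5 TPM in animal 2, a mean of 18.5 ± 2.72 TPM (SD, n = 2), at chr3:57455649-57575910 on the minus strand. Yap1 was 1.49-fold Wwtr1 in animal 1 and 1.55-fold in animal 2, and 1.61-fold and 1.72-fold in the second quantification. The ratio of the coactivators was thus nearly the same in both hearts although both genes had lower TPM in animal 1.

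Tead1 was the main TEAD gene by far. It had 67.1 TPM in animal 1 and 74.4 TPM in animal 2, a mean of 70.7 ± 5.21 TPM (SD, n = 2), at chr7:112679318-112906807 on the plus strand. The other TEAD genes were low, with Tead3 at 4.37 TPM in animal 1 and 6.02 TPM in animal 2, Tead2 at 1.86 and 2.71 TPM, and Tead4 at 1.13 and 1.47 TPM. Tead1 made up 90.1% of the TEAD transcripts in animal 1 and 87.9% in animal 2, and 86.0% and 84.6% in the second quantification. TEAD transcripts together were 1.80-fold those of Yap1 and Wwtr1 together in animal 1 and 1.62-fold in animal 2. In the second quantification the ratio was smaller, 1.47-fold in animal 1 and 1.32-fold in animal 2.

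The secreted matrix proteins encoded by Ccn1 (also called CYR61) and Ccn2 (also called CTGF) are widely used readouts of YAP and TAZ. Ccn2 had 27.01 TPM in animal 1 and 47.3 TPM in animal 2, a mean of 37.2 ± 14.4 TPM (SD, n = 2), at chr10:24595442-24598683 on the plus strand. Ccn1 had 22.8 TPM in animal 1 and 31.7 TPM in animal 2, a mean of 27.2 ± 6.34 TPM (SD, n = 2), at chr3:145646976-145649981 on the minus strand. Both genes were lower in animal 1, and Ccn2 exceeded Ccn1 by 1.19-fold in animal 1 and by 1.49-fold in animal 2. They accounted for 93.5% of CCN family transcripts in animal 1 and 95.5% in animal 2. The next member, Ccn3, had 1.86 TPM in animal 1 and 2.03 TPM in animal 2.

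Actn1 encodes the alpha-actinin of non-muscle and smooth muscle cells, which ties actin to adhesion sites, whereas Actn2 encodes the sarcomeric one of the Z-disc. Actn1 had 10.3 TPM in animal 1 and 13.4 TPM in animal 2, a mean of 11.9 ± 2.24 TPM (SD, n = 2), at chr12:80167547-80260371 on the minus strand. Actn2 had 542 TPM in animal 1 and 614 TPM in animal 2, which is 52.8-fold and 45.7-fold the level of Actn1. Actn4, the other non-muscle alpha-actinin, was also above Actn1, with 24.1 TPM in animal 1 and 37.7 TPM in animal 2. Actn1 contributed 1.78% of alpha-actinin transcripts in animal 1 and 2.02% in animal 2.

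The order of most of the genes was the same in both animals and both quantifications, from Xirp2 through Tead1, Xirp1 and Ccn2, and from Ccn1 through Wwtr1 to Actn1. 2 pairs of neighbours were not resolved. Ankrd1 exceeded Ankrd23 by 1.27-fold in animal 1 and 1.13-fold in animal 2, but in the second quantification the ratio was 0.909 in animal 1 and 0.820 in animal 2. Yap1 over Ccn1 was 1.09 in animal 1 and 0.997 in animal 2. The other 7 pairs kept their order in all 4 values, but the ranges of mean ± SD of the first quantification overlapped for 6 of the 9 pairs. The 3 pairs that differed beyond their spread were Xirp2 over Tead1, Tead1 over Xirp1, and Wwtr1 over Actn1. The order of Tead1 over Xirp1 rests on the shorter Tead1 transcripts. Tead1-201 and Tead1-202, which held most of the gene's reads, together had less TPM than Xirp1 in all 4 values. In the first quantification Tead1-212 and Tead1-206 held 20.1% and 15.5% of Tead1 TPM in animal 1, and 18.5% and 13.5% in animal 2. They held 3.55% and 3.93% of its reads in animal 1, and 3.14% and 3.27% in animal 2.

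Ankrd23 was also the gene whose level depended most on the quantification. The second quantification gave it 206 TPM in animal 1 and 249.3 TPM in animal 2, 1.77-fold the first in the mean, against a median of 1.20-fold over 11219 protein-coding genes at a mean of 1 TPM or more (quartiles 1.11 and 1.35). The reads assigned to the gene barely differed, 6764 in animal 1 and 8449 in animal 2 in the second quantification against 7116 and 8977 in the first. The overlapping gene Gm42417, on the same strand, took 393 reads in animal 1 and 467 reads in animal 2 in the first quantification and 1447 and 1886 reads in the second. Ankrd23 was the only gene of the 10 with a spread of read assignment, of 27.5 reads in animal 1 and 28.4 reads in animal 2. In TPM the 2 quantifications of Ankrd23 thus differed by more than the animals did within either, but in reads they differed by less.

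For 5 of the 10 genes a single transcript held at least 90% of the TPM in both animals and both quantifications. Xirp2-202 and Ccn1-201 held 100% in both animals. Ccn1-201 is the only annotated transcript of Ccn1, so its share is fixed by the annotation. Wwtr1-201 held 97.1% of its gene's TPM in animal 1 and 99.5% in animal 2 in the first quantification, Ccn2-201 held 93.2% and 94.5%, and Xirp1-201 held 90.7% and 94.1%. For Xirp2 this means the transcript with the 16-base stretch shown above, whose shorter frame gives 3283 residues. Xirp2-201, with the longer frame, was assigned 0 reads in animal 1 and 0 reads in animal 2 in the first quantification, beside 45718 and 46710 reads for Xirp2-202. Xirp2-201 is annotated at 11955 bases and Xirp2-202 at 11979 bases, and most reads fit both. The split between them is thus a model assignment, and reads crossing the 16-base stretch were not counted apart.

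The remaining 5 genes were read as mixtures. Yap1 was led by Yap1-202, which lacks the 48-base exon and encodes 472 residues, with 56.6% of the gene's TPM in animal 1 and 58.2% in animal 2. Yap1-201, which holds it and encodes 488 residues, had 36.4% in animal 1 and 33.2% in animal 2. Over the coding transcripts that span the exon, it was present in 39.6% of the TPM in animal 1 and 37.9% in animal 2, and in 47.3% and 39.1% in the second quantification. These 16 residues lie in the part of YAP that activates transcription. The form without them was the more abundant in both hearts and by both quantifications.

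By TPM, Tead1 had the most divided transcripts. The 12-base stretch was present in 71.0% of spanning coding TPM in animal 1 and 71.9% in animal 2, and in 82.4% and 85.8% in the second quantification, so the forms with it prevailed throughout. The 63-base stretch was present in 44.7% in animal 1 and 43.1% in animal 2 in the first quantification, but in 66.6% and 56.8% in the second. Which form of that stretch prevailed was thus not resolved. In the first quantification Tead1-202 (411 residues), with 25.7% of the gene's TPM in animal 1 and 25.9% in animal 2, and Tead1-201 (436 residues), with 24.8% and 26.7%, were nearly level, and their order differed between the animals. In the second Tead1-201 led, with 49.9% in animal 1 and 52.1% in animal 2, against 15.9% and 13.6% for Tead1-202. Tead1-212 held 20.1% in animal 1 and 18.5% in animal 2 and Tead1-206 held 15.5% and 13.5% in the first quantification, while Tead1-204 held 12.6% and 15.4% in the second. Tead1-206 was at 11.1% in animal 1 and 0.033% in animal 2 in the second. Length correction weighs on these shares. In the first quantification Tead1-212, of 1074 bases, held 3.55% of the gene's reads in animal 1 and 3.14% in animal 2. Tead1-206, of 1495 bases, held 3.93% and 3.27%. Tead1-201, of 9964 bases, held 44.4% and 45.7% of the reads, and Tead1-202, of 9480 bases, 43.7% and 42.3%.

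The coding transcripts that hold the Actn1 exons replacing each other were nearly balanced. The 81-base non-muscle exon of Actn1-201 was in 57.2% of the TPM of the 2 coding transcripts in animal 1 and 56.8% in animal 2, and in 57.6% and 54.5% in the second quantification. The 66-base smooth muscle exon of Actn1-202 made up the rest, 42.8% in animal 1 and 43.2% in animal 2. The transcript with the non-muscle exon thus led by a modest margin in all 4 values, at 1105 and 1339 reads for the whole gene. Actn1-201 is annotated at 3734 bases, 2676 of them coding, and Actn1-202 at 2664 bases, 2661 of them coding. Reads outside the exons thus enter these shares, and use of the exons alone was not measured.

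Ankrd1-205, the form with the 12-base stretch and 319 residues, led in all 4 values. It held 57.0% of the gene's TPM in animal 1 and 54.8% in animal 2 in the first quantification, and 96.0% and 96.2% in the second. Ankrd1-201, with 315 residues, had 19.98% in animal 1 and 19.1% in animal 2 in the first quantification but 0.337% and 0.849% in the second. Ankrd1-203, annotated as a target of nonsense-mediated decay, had 12.6% in animal 1 and 17.4% in animal 2 in the first. Coding transcripts in all held 77.0% of Ankrd1 TPM in animal 1 and 73.9% in animal 2, and 96.3% and 97.0% in the second quantification.

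Ankrd23 differed most between the quantifications at the transcript level as well. The coding Ankrd23-202 led the first, with 66.8% in animal 1 and 69.5% in animal 2, followed by the coding Ankrd23-204 with 31.6% and 29.7%. The second gave 57.0% in animal 1 and 55.4% in animal 2 to Ankrd23-203, a non-coding transcript 663 bases long, which had 1.56% and 0.752% in the first. Its effective length was 564 bases in the first quantification and 337 bases in the second. The second quantification thus assigned most Ankrd23 TPM to a transcript that encodes no protein, and the first assigned almost none.

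**Figure D2:**
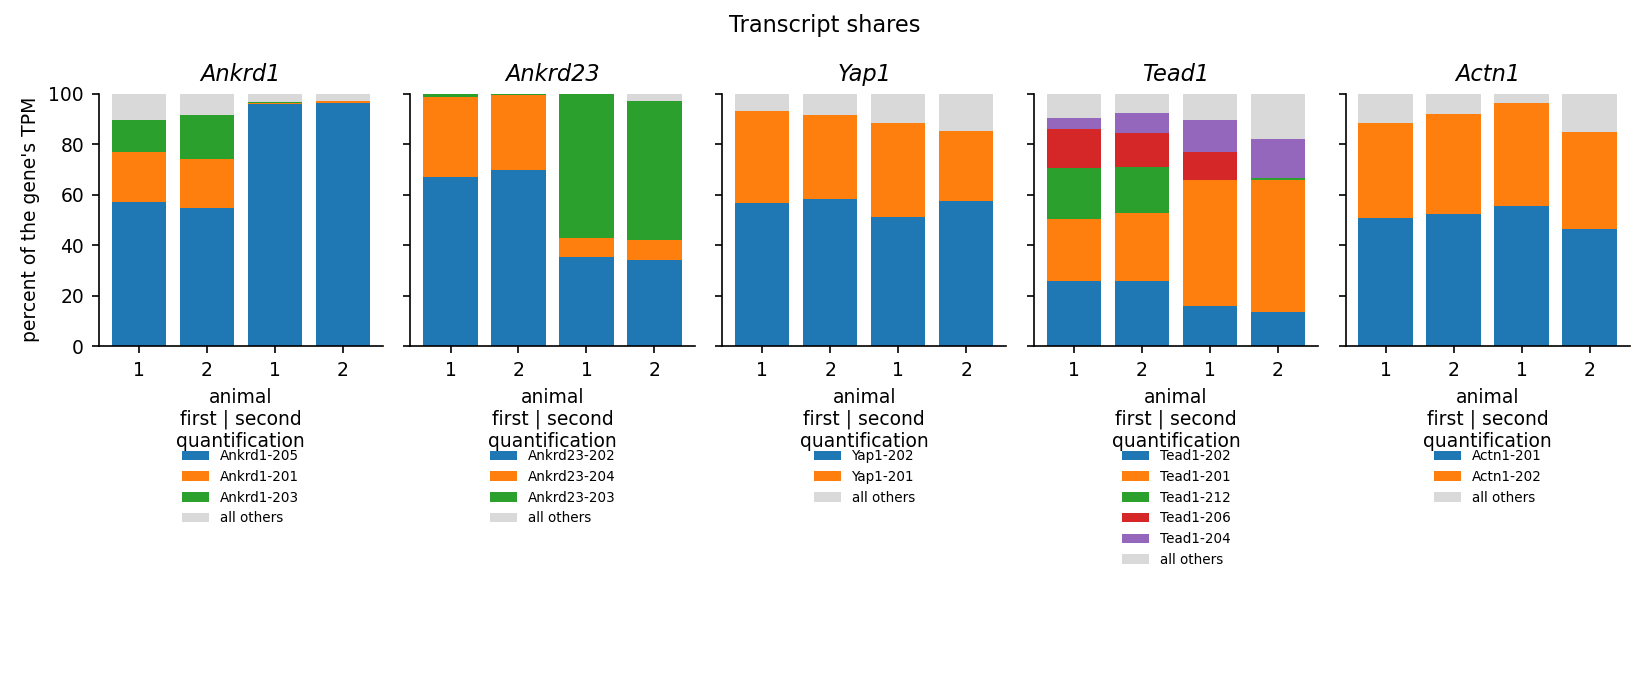
Percent of each gene's TPM held by its named transcripts in the 5 genes with mixed transcripts, with animal 1 left of animal 2 for the first and then the second quantification. The leading share of Ankrd1 and of Ankrd23 changes more between the quantifications than between the animals; in the second quantification the animals differ in Yap1-201 (37.2% and 28.0%), Actn1-201 (55.5% and 46.2%) and Tead1-206 (11.1% and 0.033%).

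The animals were compared gene by gene, which asks how far 2 hearts of the same kind vary. Each ratio is animal 1 over animal 2 after TMM scaling of the expected counts in edgeR 4.0.16, and a gene was called where a two-sided exact binomial test gave a Benjamini-Hochberg adjusted p below 0.05 over 16133 genes with at least 20 reads in total. Such a test sees counting error alone and compares 2 libraries, with no replicate check of a condition, and reads without molecular identifiers are not independent molecules. Intervals are exact 95% intervals and cover counting error only.

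8 of the 10 genes differed beyond counting error, 7 lower and 1 higher in animal 1 (0 higher with library sizes from total gene counts or from spike-ins), against 11.3% of all tested genes, 6.6% called lower and 4.75% called higher. Among the 7017 tested genes with at least 1000 reads, a depth that all 10 reached, 18.0% were called and 11.1% were called lower. The sizes were small. The median log2 ratio of the 10 genes was -0.12, against 0.00 over all tested genes, and 8 of 10 ratios were below 0, against 49.3% of all. None of the 10 reached 2-fold, while 1.38% of all tested genes were called at 2-fold or more.

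Ccn2 was the gene that differed most, with 2250 reads in animal 1 and 3496 reads in animal 2. It was 0.679-fold in animal 1 relative to animal 2 (95% interval 0.644 to 0.716, log2 ratio -0.56), with an adjusted p of 3.13e-45 by the exact binomial test. Only 0.755% of genes with at least 1000 reads had a log2 ratio as large in either direction. The transcript antisense to it, Gm15270, had 11 reads in animal 1 and 20 reads in animal 2.

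Ccn1 moved the same way, with 1621 reads in animal 1 and 2032 reads in animal 2. Its ratio was 0.841 (95% interval 0.788 to 0.899), a log2 ratio of -0.25, with an adjusted p of 6.38e-06 by the exact binomial test. Ankrd23 was close to it at 0.836 (95% interval 0.810 to 0.863, adjusted p of 1.44e-27 by the same exact test), and Actn1 stood at 0.870 (0.803 to 0.943, adjusted p of 0.0090 by the same exact test). Log2 ratios at least as large were found in 6.17% of genes with at least 1000 reads for Ccn1, 5.56% for Ankrd23 and 10.1% for Actn1. Ccn2, Ankrd23 and Ccn1 lay outside the central 90% of these genes, which ran from -0.23 to 0.17 on the log2 scale, and Actn1 lay inside it.

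The other 6 genes differed less. Xirp1 was 0.914-fold in animal 1 (adjusted p of 1.2e-08, exact binomial test), Yap1 0.928-fold (adjusted p of 0.0144, same exact test) and Ankrd1 0.959-fold (adjusted p of 0.0315, same exact test). Wwtr1 did not pass at 0.952-fold, with a 95% interval of 0.904 to 1.002, and neither did Tead1 at 1.01-fold, with a 95% interval of 0.989 to 1.04. Xirp2 was 1.03-fold in animal 1 (95% interval 1.02 to 1.05, adjusted p of 3.38e-05, same exact test), the only gene called higher there. With library sizes taken from total gene counts the log2 ratio of Xirp2 was -0.03 and that of Tead1 was -0.06, so their direction depends on the scaling. A log2 ratio at least as large as that of Xirp2 was found in 60.2% of genes with at least 1000 reads.

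**Figure D3:**
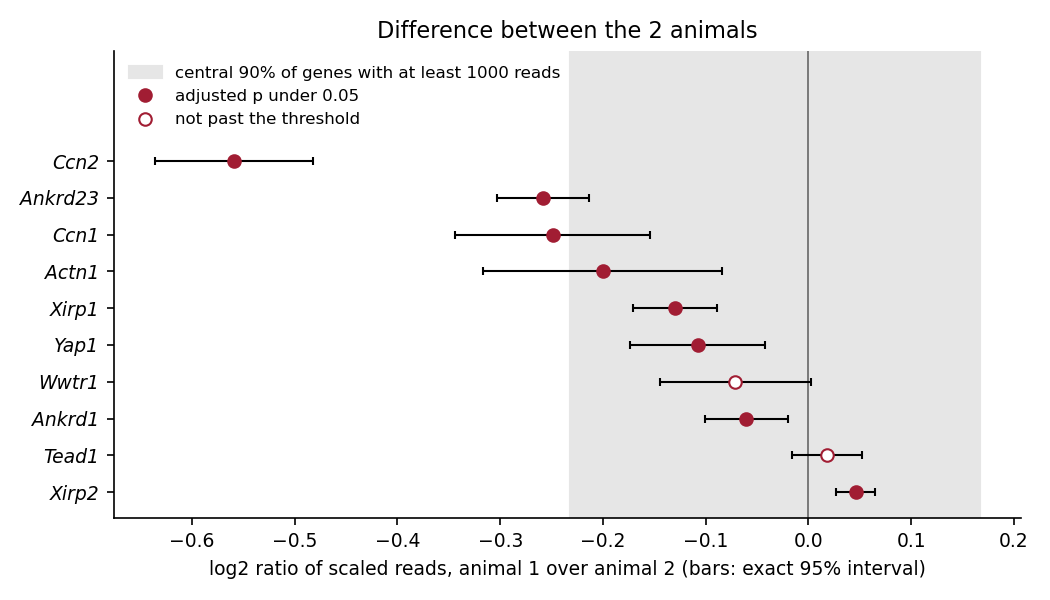
Log2 ratio of TMM-scaled reads, animal 1 over animal 2, for the 10 genes, with exact 95% intervals as bars and filled points for an adjusted p under 0.05. The grey band holds the central 90% of genes with at least 1000 reads; Ccn2, Ankrd23 and Ccn1 lie left of it and the other 7 inside it.

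Markers of 4 other cell types were called lower in animal 1, the direction in which 7 of the 10 genes were called. Those 7 were Ankrd1, Ankrd23, Xirp1, Yap1, Ccn1, Ccn2 and Actn1. Over all tested genes 6.6% were called lower, and 11.1% of those with at least 1000 reads. The log2 ratios below are scaled, while the TPM sums include the difference of scale between the animals. Of 8 fibroblast markers 5 were called lower and 0 higher in animal 1 (median log2 ratio -0.19). Their summed level was 282 TPM in animal 1 and 374 TPM in animal 2. Of 8 endothelial markers 6 were lower and 0 higher (median -0.18; 211 TPM in animal 1, 276 TPM in animal 2). Of 8 mural markers, those of smooth muscle and pericytes, 6 were lower and 0 higher (median -0.25; 286 TPM in animal 1, 382 TPM in animal 2). Of 6 macrophage markers 3 were lower and 0 higher (median -0.21; 58.3 TPM in animal 1, 79.3 TPM in animal 2). The 8 cardiomyocyte markers went 5 higher and 1 lower (median 0.02, which the shift of -0.08 under total gene counts puts below 0). Their summed level was also lower in animal 1, at 32637 TPM against 37600 TPM in animal 2. 0 of 4 mesothelial markers were called (median 0.15, with 16.9 TPM in animal 1 and 17.1 TPM in animal 2). In bulk tissue, fewer cells of a type and less RNA per cell cannot be told apart, and the part of these markers in the results for the 10 genes was not tested.

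Fat and skeletal muscle were looked at too, since either can adhere to a dissected heart. 3 of 4 adipocyte markers could be tested. All 3 were called lower in animal 1 (median log2 ratio -1.20), against 6.6% of all tested genes. The 4 markers summed to 20.6 TPM in animal 1 and 54.1 TPM in animal 2. 2 of them passed 2-fold, Adipoq at 0.366-fold and Cfd at 0.435-fold. The defining skeletal muscle myosins were near 0, with Myh1 at 22 reads in animal 1 and 1 read in animal 2, Myh2 at 18 and 0 reads and Myh4 at 10 and 4 reads. The summed skeletal muscle level of 1398 TPM in animal 1 and 1663 TPM in animal 2 came mostly from Ckm and Acta1, which heart muscle also expresses. Of the 6 skeletal muscle genes tested 1 was higher and 1 lower in animal 1 (median 0.03, also below 0 under total gene counts).

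The rest of the pathway was read from gene lists. 88 further genes were listed, 85 matched an entry and 80 could be tested. Of these 20 were called lower and 3 higher in animal 1, with a median log2 ratio of -0.09. This is 28.8% called, against 11.3% of all tested genes (6.6% lower and 4.75% higher). Among tested genes with at least 1000 reads, a depth that not every listed gene reached, 18.0% were called and 11.1% called lower. With library sizes from total gene counts 34 of the further genes were called lower and 1 higher. Because the lists were drawn up with earlier results of these data known, these counts are descriptions.

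Every gene of the Hippo kinase chain was measured, at 3.91 TPM or more in each heart. Lats2, a kinase that phosphorylates YAP and TAZ, was the highest at 11.2 TPM in animal 1 and 13.2 TPM in animal 2, followed by the scaffold gene Sav1 at 8.59 and 9.35 TPM and the coactivator gene Mob1a at 7.37 and 9.80 TPM. Lats2 was 0.892-fold in animal 1 (adjusted p of 0.0055, exact binomial test) and Mob1a also 0.892-fold (adjusted p of 0.0464, same exact test), and the other 5 of the 7 were not called. Of 16 upstream regulators 1 was higher and 1 lower, with a median log2 ratio of 0.00. The highest were the kinase gene Map4k4 at 49.9 TPM in animal 1 and 56.7 TPM in animal 2, Nf2, which encodes the membrane scaffold merlin, at 28.3 and 33.9 TPM, and the kinase gene Taok1 at 19.3 and 22.4 TPM. Each of the 7 kinase chain genes had a lower TPM than Yap1 and than Wwtr1, but their sum, 48.2 TPM in animal 1 and 55.9 TPM in animal 2, was above the sum of Yap1 and Wwtr1, 41.3 and 52.1 TPM.

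Proteins that hold YAP in the cytoplasm were led by Ywhaz, a 14-3-3 protein that binds phosphorylated YAP, at 50.1 TPM in animal 1 and 62.9 TPM in animal 2. The angiomotin genes Amotl1 (21.2 TPM in animal 1, 26.2 TPM in animal 2) and Amotl2 (21.3 TPM in animal 1, 24.8 TPM in animal 2) came next. These 3 were the called ones of the 10 in the list, all lower in animal 1, at 0.924-fold, 0.918-fold and 0.883-fold. Of the VGLL cofactors, which compete with YAP for TEAD, Vgll4 had 7.57 TPM in animal 1 and 10.3 TPM in animal 2. Vgll3 had 1.07 TPM in animal 1 and 1.93 TPM in animal 2. Vgll1 and Vgll2 had fewer than 20 reads in total. Neither Vgll4 nor Vgll3 was called, and none of the 4 TEAD genes was.

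Of 21 tested genes known as YAP and TEAD targets, 9 were lower and 0 higher in animal 1. The targets are known mostly from human cells and include Ccn1, Ccn2 and Ankrd1. Over all tested genes 6.6% were called lower and 4.75% higher, and 11.1% were called lower among those with at least 1000 reads. The median log2 ratio of the 21 targets was -0.13. Apart from Ccn1, Ccn2 and Ankrd1, the highest was Axl, a receptor tyrosine kinase gene, with 22.4 TPM in animal 1 and 32.97 TPM in animal 2. Axl was 0.755-fold in animal 1 (adjusted p of 6.85e-23, exact binomial test). Fjx1 passed 2-fold at 0.294-fold (95% interval 0.111 to 0.628, adjusted p of 0.0076, exact binomial test), from 8 reads in animal 1 and 30 reads in animal 2. Foxf2 had fewer than 20 reads. Of the alpha-actinins, Actn4 was called lower at 0.849-fold, while the sarcomeric Actn2 was 1.01-fold in animal 1 (adjusted p of 0.524, exact binomial test), and Actn3 had 14 reads in animal 1 and 13 reads in animal 2. The 3 remaining CCN genes tested, Ccn3, Ccn4 and Ccn5, were not called, and Ccn6 had fewer than 20 reads.

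**Figure D4:**
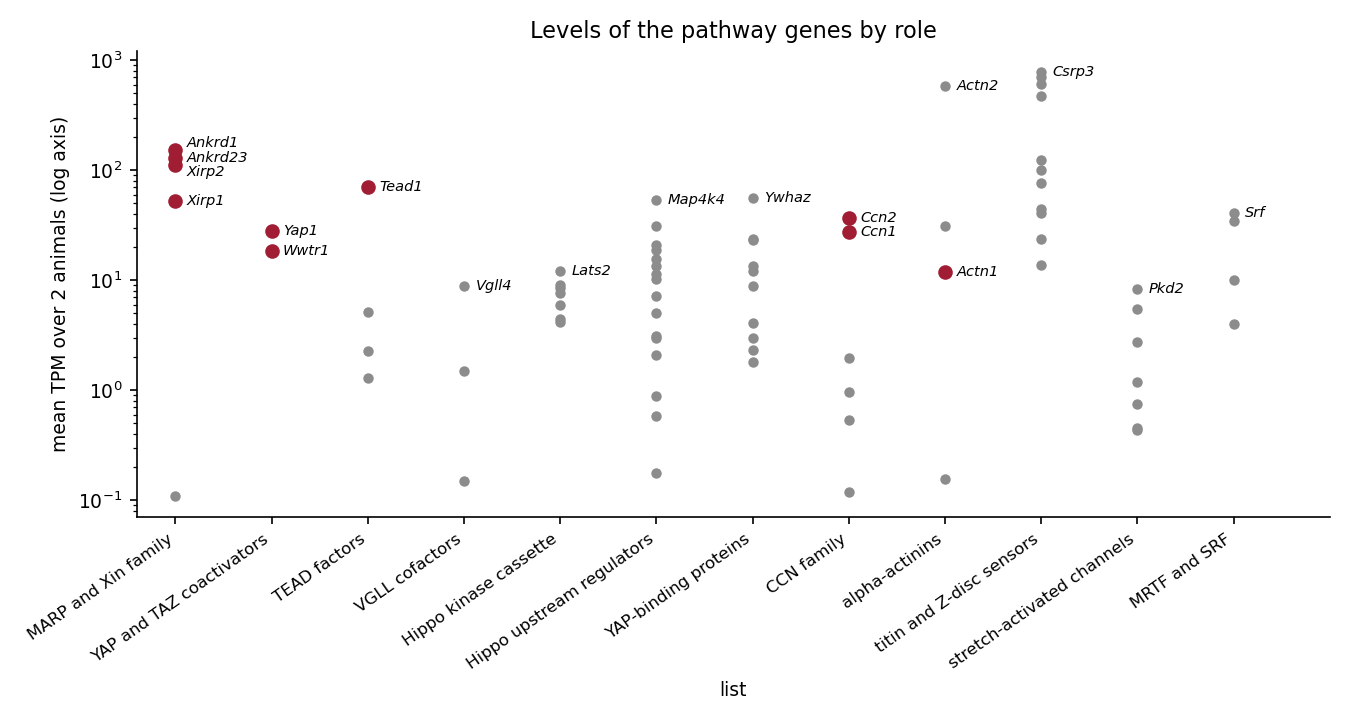
Mean TPM over both animals, on a log axis, of the genes above 0 in the pathway lists, with the 10 genes in red and named and the highest gene of each list named. The list of YAP and TEAD targets is not drawn. Tead1 stands well above the other TEAD genes, and Actn1 is far below Actn2.

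**Figure D5:**
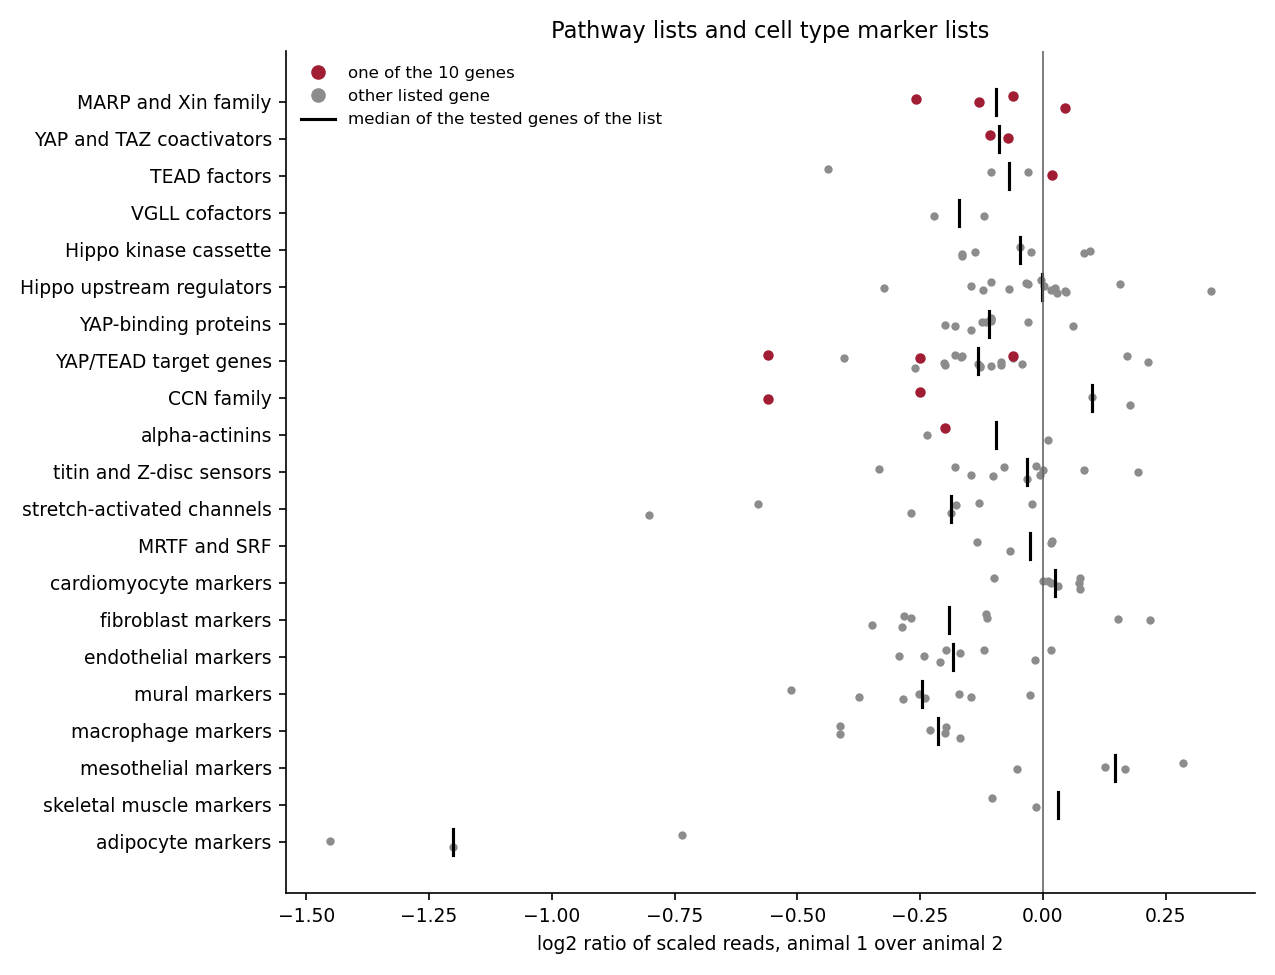
Log2 ratio of scaled reads, animal 1 over animal 2, of each listed gene with at least 100 reads over both animals, by list; red points are the 10 genes and black bars the median over all tested genes of a list. Fibroblast, endothelial, mural and macrophage medians lie between -0.18 and -0.25, the cardiomyocyte median is 0.02 (below 0 under total gene counts), and the adipocyte median is -1.20.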

How the data were processed

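The authors deposited expected counts and TPM per gene and per transcript (RSEM layout per the file headers), with the mm10 assembly and GENCODE M21 annotation per the deposited readme; these give the first quantification. Estimated counts and TPM of a separate deposited transcript table (kallisto layout per the file headers) were summed per gene for the second. The deposited percent per transcript was not used, since shares were computed from TPM. The deposited posterior standard deviation of a count, a spread of read assignment within a library, is in reads. The sources used here do not give the aligner, the versions or whether counting used strand, and reads of genes overlapping on opposite strands may be shared.

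Entries that name no gene held 4 reads in animal 1 (9.5e-06%) and 2 reads in animal 2 (4.8e-06%) and were left out. A count of 0 allows up to 3 reads, or 0.0717 CPM in animal 1 and 0.0718 CPM in animal 2. Expected counts were rounded, scaled by TMM (edgeR 4.0.16, R 4.3.3) and tested with the two-sided exact binomial test of scipy 1.17.1 over genes with at least 20 reads, with a prior count of 0.5 for log2 ratios. The test was checked on simulated counts that held counting error only, so the check does not bear on variation between animals. DESeq2 1.42.0 size factors, total gene counts, spike-in counts, no filter, posterior mean counts and the second quantification were alternatives. The animals carry separate biological replicate numbers in the labels, in a single group.

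The 10 genes and all lists were chosen with earlier results of these data known. Besides the 10 genes, the text names the 3 highest of each pathway list, pathway and marker genes past 2-fold, pathway genes under 20 reads, and transcripts leading their gene or with at least 10% of its TPM in both animals. Other listed genes, such as called ones, cell type markers and the remaining family members, were named after their values were seen. Promoter windows came from RefSeq.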

Additional observations from a re-analysis of the deposited data

How the results depend on the processing

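The counts of calls and the ratios of the 10 genes kept their direction and side of the threshold with DESeq2 size factors, posterior mean counts, no filter on low counts and the second quantification. With library sizes from total gene counts all log2 ratios shift by -0.08. Of all genes 377 were then called higher and 2994 lower in animal 1, against 767 higher and 1064 lower with TMM. Of the 10 genes 0 were then called higher, Xirp2 turned to a log2 ratio of -0.0335 (adjusted p of 0.0035, exact binomial test) and Tead1 to -0.0612 (adjusted p of 0.00327, same exact test), and Wwtr1 passed at -0.15. Of the further listed genes 34 were then called lower, against 20, and 1 higher, against 3. Spike-in scaling shifted ratios by -0.03, with 571 genes called higher and 1451 lower; Xirp2 no longer passed (adjusted p of 0.168, exact binomial test), leaving 0 of the 10 higher. Counts of the further lists and a fold minimum of 1.5, which 0 of the 10 genes reached, were alternatives chosen after seeing the data. Mean levels moved by less than 1 SD for 6 of the 10 genes in the second quantification and for 0 of 10 after rescaling to nuclear protein-coding genes, which raises all levels because these genes held 38.4% of TPM in animal 1 and 45.1% in animal 2. The share of the leading transcript moved by more than 1 SD for 7 of the 10 genes in the second quantification. The same number, 7 of 10, moved when shares were taken from expected counts. By expected counts the mean share of Tead1-202 went from 25.8% to 43.0% and that of Ankrd23-202 from 68.2% to 82.9%. Actn1-201 went from 51.3% to 63.4%. No paired analysis was possible because there is a single group. With 1 library per animal, leaving an animal out leaves no test. All 10 genes had at least 1105 reads in each library, but depth still bore on which small differences passed. Wwtr1 did not pass at 0.952-fold, with 2832 reads in animal 1 and 3138 reads in animal 2. Ankrd1 passed at 0.959-fold, with 9403 and 10344 reads. Fjx1, Myh1 and the genes under 20 reads rest on few reads.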

Other observations

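Other parts of the heart's stretch machinery ranged widely in level. The sensors and adaptors of titin and the Z-disc were the most abundant, led by Csrp3, the muscle LIM protein gene, at 717 TPM in animal 1 and 849 TPM in animal 2, Fhl2, which encodes a titin-binding LIM protein, at 647 and 776 TPM, and Myoz2, which encodes a calcineurin-binding Z-disc protein, at 575 and 639 TPM. Of the 11 tested, 2 were higher and 6 lower in animal 1, with a median log2 ratio of -0.03, and 1 listed symbol, Murc, matched no entry. Fhl2 was 0.978-fold and Myoz2 1.06-fold in animal 1.

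Stretch-activated channel genes were low throughout. Pkd2 had 7.27 TPM in animal 1 and 9.30 TPM in animal 2, Piezo1 4.79 and 6.17 TPM, and Trpc1 2.46 and 2.98 TPM. Of 7 tested, 2 were lower and 0 higher in animal 1, Piezo1 at 0.885-fold and Trpv2 at 0.573-fold, with a median log2 ratio of -0.19. In the actin-regulated MRTF and SRF branch, Srf had 34.5 TPM in animal 1 and 46.8 TPM in animal 2, Myocd, which encodes the muscle coactivator myocardin, 33.01 and 36.3 TPM, and Mrtfb 9.0 and 10.97 TPM. Of these 3 and Mrtfa, 1 was lower and 0 higher in animal 1, Srf at 0.912-fold. The listed symbols Mkl1 and Mkl2 are older names of Mrtfa and Mrtfb and matched no entry.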
